A study of Mus musculus with 26 samples.

Results

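Promoters whose genes stayed at background RNA levels in naive, primed, and *Nanog*-deficient mouse pluripotent cells were described by their promoter Capture Hi-C (PCHi-C) contacts. PCHi-C ligates HindIII restriction fragments that lie close together in fixed nuclei and enriches the ligated pairs that hold a promoter with RNA baits. A baited fragment was taken as silent when every gene name it carried that was found in the RNA-seq table had a group median under 0.1 RPKM (reads per kilobase of transcript and per megaread) in all 3 cell states. At least 1 gene had to be found, and fragments with an olfactory (*Olfr*) or vomeronasal (*Vmn*) receptor name were left out. The rule gave 1810 of the 19022 baited fragments in the lists, with 1804 different genes. For comparison, 8830 baited fragments carried a gene at 1 RPKM or more in all 3 medians and are called expressed, and 700 carried an *Olfr* or *Vmn* name. A further 4063 carried genes that met neither rule, including genes expressed in only some states, and no gene of the other 3619 was found in the RNA-seq table. A baited fragment with no listed contact in any state does not appear in the lists and was not counted.

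Wild-type (WT) ESCs of the E14Tg2a line and *Nanog*-/- ESCs, the RCNβH-B(t) line that was derived from it, grew on gelatin in medium with 15% serum and 1000 U/ml LIF. EpiSCs, primed cells from 129S2 embryos, grew on fibronectin in N2B27 medium with 20 ng/ml Activin A and 12 ng/ml bFGF. The strain field of the labels gives C57BL/6 for these cells, which differs from the line names in the growth protocol. The *Nanog*-/- cells are a single line, EpiSCs differ from ESCs in genetic background as well as in medium and state, and these differences cannot be told apart here. PCHi-C was sequenced in 5 lanes for WT ESCs, 2 for EpiSCs, and 5 for the *Nanog*-/- ESCs, and RNA-seq covered 3, 4, and 3 samples. Each state has 1 interaction list, combined over its replicates, and 1 median RPKM per gene, so no value has a replicate error and no test between states could be made. Intervals are 95% Wilson intervals and cover counting error only. They also treat fragments and pairs as separate, although neighboring fragments share contacts and a pair of silent fragments counts for both in the contact numbers.

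The lists held 100492 different fragment pairs in WT ESCs, 87369 in EpiSCs, and 74931 in the *Nanog*-/- ESCs, with no score under 5 on the CHiCAGO scale, which weighs the reads of a pair against the background at its distance. Median *Nanog* RNA was 417.7 RPKM in WT ESCs, 360.6 in EpiSCs, and 22.26 in the group headed BT12, which was taken as the *Nanog*-/- ESCs because it is the only other ESC group with RNA-seq. *Pou5f1*, the core pluripotency factor, stood at 1159, 1422, and 1129 RPKM in the same order. *Esrrb*, a naive factor, stood at 210.4, 0.775, and 147.4 RPKM, and *Fgf5*, a primed marker, at 4.738, 219.3, and 1.11 RPKM.

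A promoter can lack RNA in pluripotent cells because its gene belongs to a later cell type. Many such genes lie in tandem arrays of related copies, among them the keratin genes of skin and hair, defensins, taste receptors, and mucins. Mammalian promoters fall broadly into CpG-rich promoters, typical of genes used in most cells and of developmental regulators, and CpG-poor promoters, typical of tissue-specific genes and more often provided with a TATA box.

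The promoter windows of the 4 silent members with the most contacts among those with a RefSeq window are shown to make this base composition visible. Each runs from 250 bases before to 50 bases after the annotated start, is taken from RefSeq on GRCm38.p6, and is written 5′ to 3′ with CpG dinucleotides in capitals. The *A730018C14Rik* window is chr12:112423149-112423448 on the minus strand and holds 3 CpG, for an observed to expected CpG ratio of 0.185. The keratin windows are chr15:101802311-101802610 for *Krt73*, chr15:101573855-101574154 for *Krt75*, and chr15:101954238-101954537 for *Krt78*, each on the minus strand. They hold 4, 8, and 8 CpG, for ratios of 0.28, 0.37, and 0.314, where the median over all 32851 RefSeq promoter windows is 0.384.
A730018C14Rik: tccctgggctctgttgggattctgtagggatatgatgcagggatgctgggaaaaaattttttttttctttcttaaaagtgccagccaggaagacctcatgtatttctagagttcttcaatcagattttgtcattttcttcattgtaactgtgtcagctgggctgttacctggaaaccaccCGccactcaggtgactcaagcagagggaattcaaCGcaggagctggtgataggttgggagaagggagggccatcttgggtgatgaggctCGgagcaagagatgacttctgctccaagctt
Krt73: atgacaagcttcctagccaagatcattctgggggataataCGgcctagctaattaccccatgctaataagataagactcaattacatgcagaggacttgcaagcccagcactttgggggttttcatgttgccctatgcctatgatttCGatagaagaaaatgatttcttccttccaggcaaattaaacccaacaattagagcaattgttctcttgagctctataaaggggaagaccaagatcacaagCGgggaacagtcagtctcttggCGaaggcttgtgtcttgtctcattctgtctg
Krt75: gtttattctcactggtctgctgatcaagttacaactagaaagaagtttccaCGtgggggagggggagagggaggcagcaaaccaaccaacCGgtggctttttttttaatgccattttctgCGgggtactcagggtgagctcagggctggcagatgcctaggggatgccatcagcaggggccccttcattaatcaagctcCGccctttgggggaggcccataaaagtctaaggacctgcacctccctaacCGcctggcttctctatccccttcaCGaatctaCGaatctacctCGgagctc
Krt78: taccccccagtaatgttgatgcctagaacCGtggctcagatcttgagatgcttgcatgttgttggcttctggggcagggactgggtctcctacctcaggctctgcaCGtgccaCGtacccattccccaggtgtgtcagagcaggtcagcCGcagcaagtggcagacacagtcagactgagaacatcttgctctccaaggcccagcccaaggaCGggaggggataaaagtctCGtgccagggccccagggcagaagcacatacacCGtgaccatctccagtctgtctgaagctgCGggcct

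A pair of windows from the chromosome 11 keratin cluster, described further on for its contacts, is shown with the letters TATAAA in capitals. *Krtap29-1*, a hair keratin-associated protein gene, has its window at chr11:99979051-99979350 on the minus strand with TATAAA at position -32 from the start. *Gm11567* has its window at chr11:99878937-99879236 on the plus strand with TATAAA at position -30, and the *Krt73* window above also holds the letters at position -30. TATAAA, searched on both strands, occurs in 4473 of all 32851 windows, or 13.6%. Only 1138 of the 1810 silent fragments (62.9%) had a RefSeq window, under the 80% set for a comparison, so the comparison over the members is void and no share is given.
Krtap29-1: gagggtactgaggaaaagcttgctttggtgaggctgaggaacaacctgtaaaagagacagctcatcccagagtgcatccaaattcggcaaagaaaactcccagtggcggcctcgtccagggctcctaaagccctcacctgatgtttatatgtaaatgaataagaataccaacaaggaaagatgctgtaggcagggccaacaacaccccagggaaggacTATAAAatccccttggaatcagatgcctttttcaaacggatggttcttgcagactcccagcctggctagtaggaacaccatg
Gm11567: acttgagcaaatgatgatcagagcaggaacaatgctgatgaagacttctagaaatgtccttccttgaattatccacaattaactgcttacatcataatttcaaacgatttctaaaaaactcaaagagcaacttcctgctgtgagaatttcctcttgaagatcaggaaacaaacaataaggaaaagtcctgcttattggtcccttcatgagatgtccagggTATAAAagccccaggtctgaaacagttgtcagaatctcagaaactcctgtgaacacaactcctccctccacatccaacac

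All silent fragments could be read from the GRCm38 genome sequence instead. A 300-base window with at least 50% GC and a CpG ratio of at least 0.6 occurred in 411 of 1810 silent fragments, 22.7% (20.8 to 24.7). The same held for 7979 of 8830 expressed fragments, 90.4% (89.7 to 91.0), and for 43 of 700 *Olfr* and *Vmn* fragments, 6.14% (4.59 to 8.17). The silent fragments had a median GC content of 44.8% and a median length of 5.04 kb, against 48.9% and 5.93 kb for expressed fragments. Another protein-coding gene had a start site in 228 silent fragments, and in 13 of them that gene was at 0.1 RPKM or more in a state. Members lay on all chromosomes counted, from 7.29% of the baited fragments of chromosome 4 to 15.2% of those of chromosome 6.

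The RPKM values chose the members and are given only as a description. Of the 1810 fragments, 815 carried a gene at 0 RPKM in all 3 medians, and the median of the highest of the 3 values was 0.0153 RPKM. The members nearest to the limit were *Il1f10*, an interleukin-1 family gene, *2310003L06Rik*, and *Slc6a12*, a betaine and GABA transporter gene, whose highest medians were 0.1 RPKM (under the limit before rounding), 0.0998, and 0.0998. Just outside it were *Rpl26-ps2* at 0.1001 RPKM, *Gm4825* at 0.1001, and *Chrdl2* at 0.1002. The contact numbers of *Il1f10* were 12, 10, and 10 in WT ESCs, EpiSCs, and *Nanog*-/- ESCs, and those of *Chrdl2* were 0, 2, and 2.

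All silent promoters have a contact in at least 1 list, because only fragments of listed pairs were counted. Their median number was 3 in WT ESCs, 2 in EpiSCs, and 2 in the *Nanog*-/- ESCs, where expressed promoters had 4, 3, and 3. The quartiles of the silent fragments ran from 1 to 9 contacts in WT ESCs, from 1 to 6 in EpiSCs, and from 0 to 6 in the *Nanog*-/- ESCs. In WT ESCs 110 silent fragments had 25 or more contacts, 6.08% (5.07 to 7.27), against 3.85% (3.47 to 4.27) of expressed fragments. Of these 110, 37 lay in the keratin gene clusters of chromosomes 11 and 15 described further on. Outside them the share was 73 of 1746, 4.18% (3.34 to 5.23), and its interval overlapped that of expressed fragments. The 110 fragments made up 31.6% of all contacts of silent fragments in WT ESCs. The corresponding silent shares were 2.76% in EpiSCs and 3.26% in *Nanog*-/- ESCs, or 2.12% and 2.23% outside the keratin clusters, against 2.84% and 2.13% of expressed fragments.

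The share of silent fragments without any contact was 9.06% (7.82 to 10.5) in WT ESCs, 18.7% (17.0 to 20.6) in EpiSCs, and 29.0% (26.9 to 31.1) in *Nanog*-/- ESCs. Expressed fragments had 9.54%, 11.7%, and 20.8%, and *Olfr* and *Vmn* fragments had 7.0%, 31.4%, and 56.4%. Over fragments of all GC contents together, the silent and expressed intervals thus overlapped in WT ESCs and did not overlap in the other lists. Contacts in all 3 lists were found for 1118 silent fragments, and 335 had contacts in a single list. Of these 335, 202 were in the WT ESC list, 101 in the EpiSC list, and 32 in the *Nanog*-/- ESC list. Each was counted because of that list alone, and adds to the shares without contact of the other lists. These counts were not set beside those of all baited fragments. With lists of equal size, the shares without contact moved to 17.3% in WT ESCs and 23.6% in EpiSCs, beside the same 29.0% in *Nanog*-/- ESCs, whose list is the shortest.

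**Figure D1:**
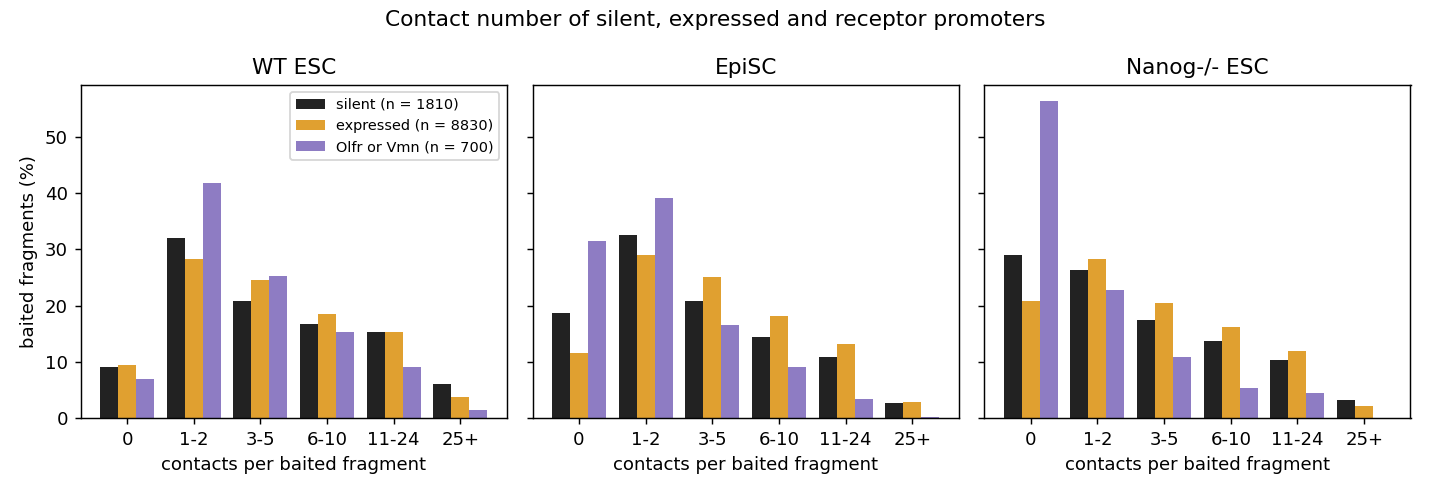
Share of baited fragments (%, vertical axis) by number of contacts (horizontal axis) in the 3 lists, for silent (black), expressed (orange), and *Olfr* or *Vmn* (purple) fragments. Of the 3 groups plotted, silent fragments have the highest share with 25 or more contacts in WT ESCs (6.08%) and in *Nanog*-/- ESCs (3.26%), or 4.18% and 2.23% without the keratin clusters, and 9.06%, 18.7%, and 29.0% of them have no contact in WT ESCs, EpiSCs, and *Nanog*-/- ESCs.

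Contact number moved with base composition and with the density of neighboring baits. Among silent fragments under 40% GC, 15.5% (11.8 to 20.1) had no contact in WT ESCs, 28.5% (23.6 to 34.0) in EpiSCs, and 60.1% (54.4 to 65.6) in *Nanog*-/- ESCs. Expressed fragments under 40% GC had 21.8%, 19.4%, and 64.5%. Silent fragments of 45% GC or more had 5.89%, 12.7%, and 14.0%, and expressed ones 8.40%, 10.6%, and 16.4%. From 40 to 45% GC silent fragments had 10.5%, 22.6%, and 35.4%, and expressed ones 13.8%, 16.0%, and 37.6%. In *Nanog*-/- ESCs the silent share was thus below the expressed share in each GC range, with overlapping intervals, although it was above over all fragments. In EpiSCs the silent share was above in each range, with intervals that overlapped except from 40 to 45% GC. In WT ESCs the silent share was below in each range, with intervals that overlapped except at 45% GC or more. The part of base composition in the difference between the lists was not tested. Silent fragments with fewer than 5 other baits within 500 kb had a median of 1 contact in WT ESCs, and those with at least 30 had a median of 12.5. At this highest bait density, expressed fragments had a median of 8. The 226 silent fragments at this density include fragments of the keratin clusters described further on. Those named for their contact numbers had 32 to 69 other baits within 500 kb. The medians were not taken without these clusters. The CpG-rich silent fragments had a median of 4 contacts in WT ESCs, 3 in EpiSCs, and 2 in the *Nanog*-/- ESCs, and the CpG-poor ones had 3, 2, and 2.

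The gene families were grouped only by the start of the symbol, which can take in unrelated genes such as *Tbxas1* beside the *Tbx* factors. Of 108 measured fragments with epidermal names (keratins, keratin-associated proteins, and cornified envelope proteins), 67 were silent, with medians of 20 contacts in WT ESCs, 9 in EpiSCs, and 8 in the *Nanog*-/- ESCs. Chemosensory names other than *Olfr* and *Vmn*, mainly taste, trace amine, and Mas-related receptors, gave 43 silent fragments of 48, with medians of 3, 1, and 1. Names of immune genes gave 100 of 417 (medians 5, 3, and 3), those of liver, gut, and kidney enzymes and transporters 83 of 212 (4, 2, and 2), and those of reproductive genes 35 of 101 (4, 3, and 3). Developmental regulators gave 42 of 384, with medians of 6, 5, and 4, and neuronal receptors and channels 42 of 199 (4, 2, and 2.5). A CpG-rich window occurred in 71.4% (56.4 to 82.8) of the developmental and 57.1% (42.2 to 70.9) of the neuronal silent fragments. The epidermal ones had 11.9% (6.18 to 21.8), and the remaining families ranged from 4.65% to 15.7%. Outside all of these families 1398 of 13234 measured fragments were silent, 10.6% (10.1 to 11.1). The silent share of the developmental regulators, 10.9% (8.19 to 14.5), lay near it. The other families had higher silent shares, from 21.1% for neuronal to 89.6% for chemosensory names. The 1398 fragments had medians of 3, 2, and 2 contacts, as had all silent fragments together. Smaller symbol groups included 25 silent defensin fragments (*Defb*), with 225 contacts summed over them in WT ESCs, 105 in EpiSCs, and 119 in the *Nanog*-/- ESCs, and 24 bitter taste receptor fragments (*Tas2r*), with 50, 43, and 13.

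Among developmental regulators, *Hoxc11*, a homeobox gene of the HoxC cluster, had 67 contacts in WT ESCs, 47 in EpiSCs, and 58 in the *Nanog*-/- ESCs. *Neurod2*, a neuronal basic helix-loop-helix factor, had 28, 9, and 25. *Lhx5*, a LIM homeobox gene of the forebrain, had 36, 36, and 25, and *Foxe3*, a lens factor, had 35, 17, and 31. *Evx2*, the homeobox gene beside the HoxD cluster, had 2, 14, and 2. *Hoxc11* was chosen for its total number, and the other 4 were named after their values were seen. Their RNA was under 0.1 RPKM in all states by the rule, while their contact numbers differed between lists in both directions.

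The silent promoter with the most contacts over the 3 lists was *A730018C14Rik* on chromosome 12, with 69 in WT ESCs, 65 in EpiSCs, and 73 in the *Nanog*-/- ESCs. Most of these partners were not baited, 61, 55, and 66 in the same order. *Krt73*, a keratin of the inner root sheath of hair, had 73, 51, and 70 contacts, and *Krt75*, a keratin of the hair follicle companion layer, had 68, 48, and 66. *Krt78* had 69, 46, and 65, and *Krt86*, a hair keratin, had 63, 35, and 59. All 4 keratins lie on chromosome 15, were lowest in EpiSCs, and were within 4 contacts of WT ESCs in the *Nanog*-/- ESCs. *Krt35*, a hair keratin on chromosome 11, had 63, 40, and 40. *Gm17649*, beside the HoxC cluster, had 65, 61, and 46. *Ffar1*, a fatty acid receptor gene, had 57, 45, and 45, and *Gm17368* had 46, 49, and 46. The partners differed in kind between these fragments: 30 of 63 partners of *Krt35* in WT ESCs were silent promoters and none was expressed, while *Ffar1* had 7 expressed promoters and 0 silent ones among 57 partners.

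**Figure D2:**
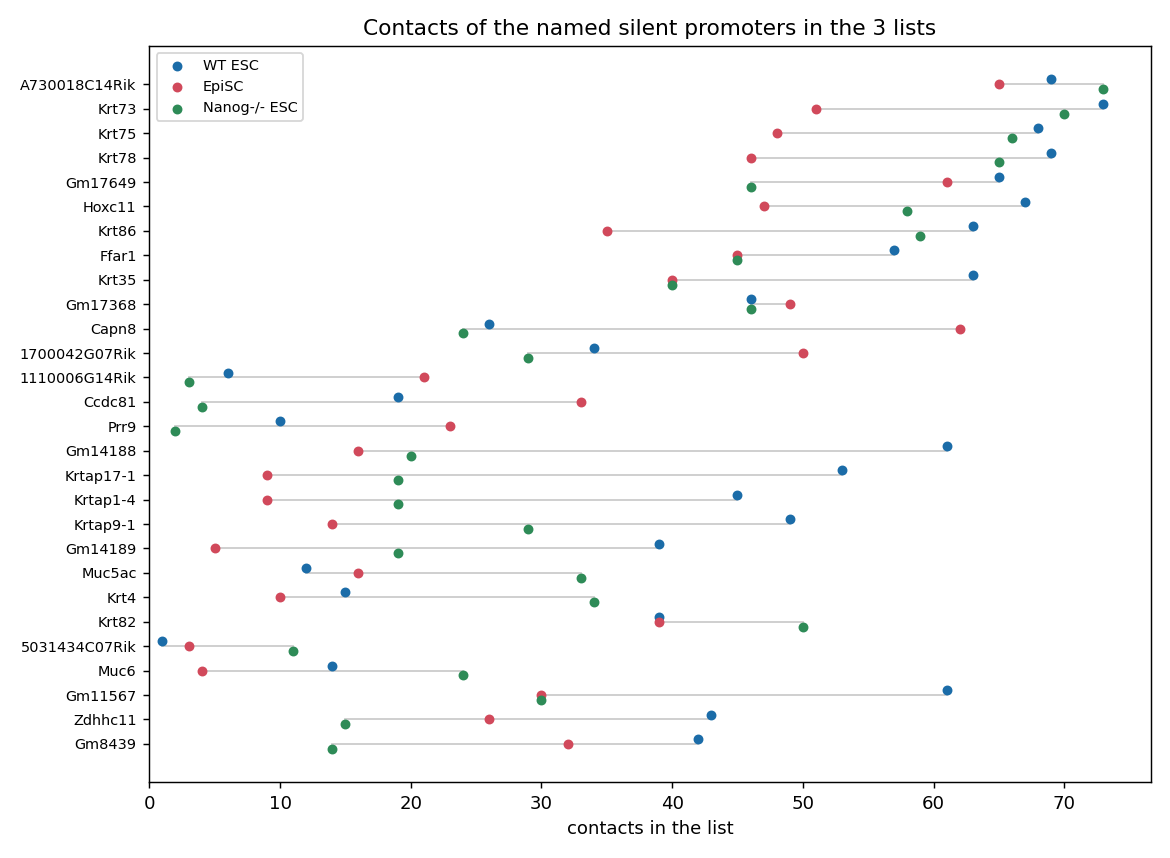
Number of contacts (horizontal axis) of the silent promoters named by their total or by their difference between lists (vertical axis), with a point for WT ESCs (blue), EpiSCs (red), and *Nanog*-/- ESCs (green) joined by a gray line. *A730018C14Rik* at the top has 65 to 73 contacts in the 3 lists, and *Gm14188* runs from 16 to 61.

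Contacts of silent promoters spanned longer distances than those of expressed promoters in each list. The median distance between fragments on the same chromosome was 178 kb in WT ESCs (quartiles 77.6 and 316), 173 kb in EpiSCs (79.2 and 301), and 103 kb in the *Nanog*-/- ESCs (29.1 and 220). Expressed promoters had medians of 121, 123, and 66.6 kb. Distances over 800 kb made up 1.82% (1.59 to 2.07) of silent contacts in WT ESCs, 2.51% (2.20 to 2.86) in EpiSCs, and 0.629% (0.479 to 0.826) in *Nanog*-/- ESCs, against 0.995%, 1.44%, and 0.268% for expressed promoters. The shorter distances in *Nanog*-/- ESCs were thus seen in both groups of promoters, and also over all 74585 same-chromosome pairs of that list, whose median was 74.1 kb against 139 kb in WT ESCs and 141 kb in EpiSCs. With at least 5 reads required, the silent shares over 800 kb were 1.41%, 1.94%, and 0.421%.

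Most partners of silent promoters were not baited. Such fragments made up 66.0% (65.2 to 66.9) of their 11926 pairs in WT ESCs, 71.7% (70.7 to 72.6) of 8579 in EpiSCs, and 67.9% (66.8 to 68.9) of 8152 in *Nanog*-/- ESCs. Expressed promoters were partners in 9.65%, 8.54%, and 9.68% of pairs, and other silent promoters in 8.79% (8.29 to 9.31), 6.42% (5.92 to 6.96), and 7.51% (6.96 to 8.10). This gave 1048 silent to silent pairs in WT ESCs, 551 in EpiSCs, and 612 in the *Nanog*-/- ESCs. A silent to silent pair counts once in these shares, although it gives each of its fragments a silent partner. Counted per fragment the silent share would be larger, so these shares do not rank silent against expressed partners.

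Among promoter to promoter pairs, the partner of a silent promoter was silent in 25.9% (24.5 to 27.2) in WT ESCs, 22.7% (21.1 to 24.4) in EpiSCs, and 23.4% (21.8 to 25.0) in *Nanog*-/- ESCs. The partner of an expressed promoter was silent in 7.30%, 6.47%, and 6.77%. The neighborhoods of the fragments differed in the same direction: of the baits within 500 kb of a silent promoter 24.7% were silent, and of those within 500 kb of an expressed promoter 6.70% were. In these neighborhood shares a pair of neighbors of the same class counted from both ends, while a listed pair counted once. The shares of neighbors and of listed pairs are therefore not on the same scale, and their sizes cannot be compared. Without the keratin clusters described next, which were left out after the data had been seen, the difference between silent and expressed promoters shrank from 18.6 to 8.87 percentage points in WT ESCs, from 16.2 to 7.94 in EpiSCs, and from 16.6 to 7.85 in *Nanog*-/- ESCs.

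At matched distance, the share of all possible pairs of silent promoters that were listed in WT ESCs was 32.3% (29.7 to 35.0) within 100 kb, 29.1% (26.4 to 31.9) at 100 to 250 kb, 23.4% (21.2 to 25.8) at 250 to 500 kb, and 4.64% (3.57 to 6.02) at 500 to 1000 kb. Pairs of expressed promoters were listed in 30.1%, 18.5%, 5.63%, and 0.682%, and mixed pairs in 22.0%, 13.3%, 5.10%, and 0.595%. In EpiSCs the silent pairs had 20.8%, 14.0%, 9.91%, and 2.19%, and in *Nanog*-/- ESCs 25.6%, 13.1%, 11.3%, and 1.84%. Expressed pairs had 24.2%, 12.7%, 4.13%, and 0.594% in EpiSCs, and 29.4%, 11.6%, 2.50%, and 0.166% in *Nanog*-/- ESCs. Within 100 kb the silent share was thus below the expressed share in EpiSCs, 20.8% (18.6 to 23.2) against 24.2% (23.3 to 25.0), and in *Nanog*-/- ESCs, 25.6% (23.2 to 28.1) against 29.4% (28.5 to 30.3). The keratin clusters carried much of the silent share beyond 250 kb. Without them the silent pairs had 9.43% (7.60 to 11.6) at 250 to 500 kb in WT ESCs, 2.98% (2.01 to 4.39) in EpiSCs, and 3.60% (2.52 to 5.12) in *Nanog*-/- ESCs, where expressed pairs without them had 5.64%, 4.14%, and 2.51%. At 500 to 1000 kb the silent share without them was 2.17% (1.45 to 3.23), 1.32% (0.788 to 2.20), and 0.660% (0.320 to 1.36) in the same order. In EpiSCs the order of silent and expressed pairs at 250 to 500 kb was thus turned around by leaving out the clusters, although their intervals overlapped without them.

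**Figure D3:**
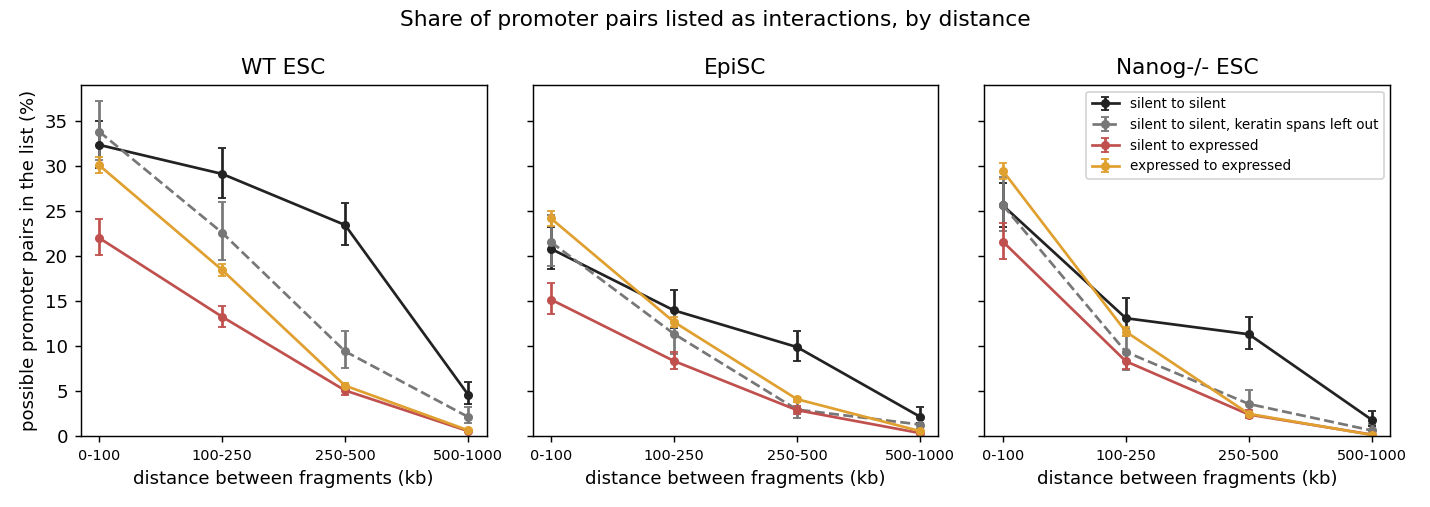
Share of all possible promoter pairs on the same chromosome that were in a list (%, vertical axis) by distance bin (kb, horizontal axis), with Wilson 95% intervals, for silent pairs (black), silent pairs without the keratin clusters (gray, dashed), mixed pairs (red), and expressed pairs (orange). In WT ESCs silent pairs at 250 to 500 kb stand at 23.4%, or 9.43% without the keratin clusters, and expressed pairs at 5.63%.

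The keratin genes lie in a pair of clusters, type I keratins with hair keratin-associated proteins on chromosome 11 and type II keratins on chromosome 15. These clusters were singled out after their contact numbers had been seen, and run from the first to the last baited keratin fragment, chr11:99243505-100270427 and chr15:101407889-102030352. On chromosome 11 the 50 silent fragments had a median of 26.5 contacts in WT ESCs (range 2 to 63), 9 in EpiSCs (1 to 40), and 12 in the *Nanog*-/- ESCs (1 to 40). Their number was lower in EpiSCs than in WT ESCs for 49 of 50 and lower in the *Nanog*-/- ESCs for 48 of 50. On chromosome 15 the 14 silent fragments had medians of 36.5, 24, and 38, with 12 of 14 lower in EpiSCs and 9 of 14 lower in the *Nanog*-/- ESCs. Over all 1810 silent fragments, 1082 were lower in EpiSCs than in WT ESCs and 1191 were lower in the *Nanog*-/- ESCs. The 9 of 14 thus lay near the share over all silent fragments. The ranges of the lists overlapped in both clusters.

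Lists of equal size gave the chromosome 11 fragments medians of 20 in WT ESCs, 8 in EpiSCs, and 12 in the *Nanog*-/- ESCs, with 48 of 50 lower in EpiSCs and 45 of 50 lower in the *Nanog*-/- ESCs. For chromosome 15 they gave 28, 21, and 38, with 12 of 14 lower in EpiSCs but 9 of 14 higher in *Nanog*-/- ESCs, so the direction in *Nanog*-/- ESCs depended on the size of the lists there. The same counts over all silent fragments were not taken in lists of equal size. Contacts of the chromosome 11 fragments stayed within the cluster in 98.6% of 1046 pairs in WT ESCs, 98.8% of 405 in EpiSCs, and 96.8% of 501 in *Nanog*-/- ESCs, and those of the chromosome 15 fragments in 81.2%, 80.4%, and 84.3%. Of the 1225 possible pairs among the 50 silent fragments, 467 were listed in WT ESCs (38.1%, 35.4 to 40.9), 226 in EpiSCs (18.4%, 16.4 to 20.7), and 239 in the *Nanog*-/- ESCs (19.5%, 17.4 to 21.8). Of the 91 possible pairs on chromosome 15, 57, 35, and 67 were listed.

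Most keratin-cluster fragments that were not silent also had fewer contacts in EpiSCs than in WT ESCs. Among fragments neither silent nor expressed these were 12 of 15 on chromosome 11 and 7 of 9 on chromosome 15, and among expressed fragments 0 of 2 and 2 of 3. These counts were not set beside those of all fragments of the same classes. *Krt19*, a simple epithelial keratin in the chromosome 11 cluster, had 20 contacts in WT ESCs, 37 in EpiSCs, and 23 in the *Nanog*-/- ESCs, and its RNA stood at 25.88, 145.5, and 18.62 RPKM. *Krt8* and *Krt18*, its partners in simple epithelia, lie at the end of the chromosome 15 cluster and had 14, 9, and 12 contacts and 8, 11, and 13 contacts, with RNA of 53.76, 430.0, and 81.08 RPKM and 48.47, 326.8, and 78.49 RPKM. These 3 fragments were named after their values were seen.

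**Figure D4:**
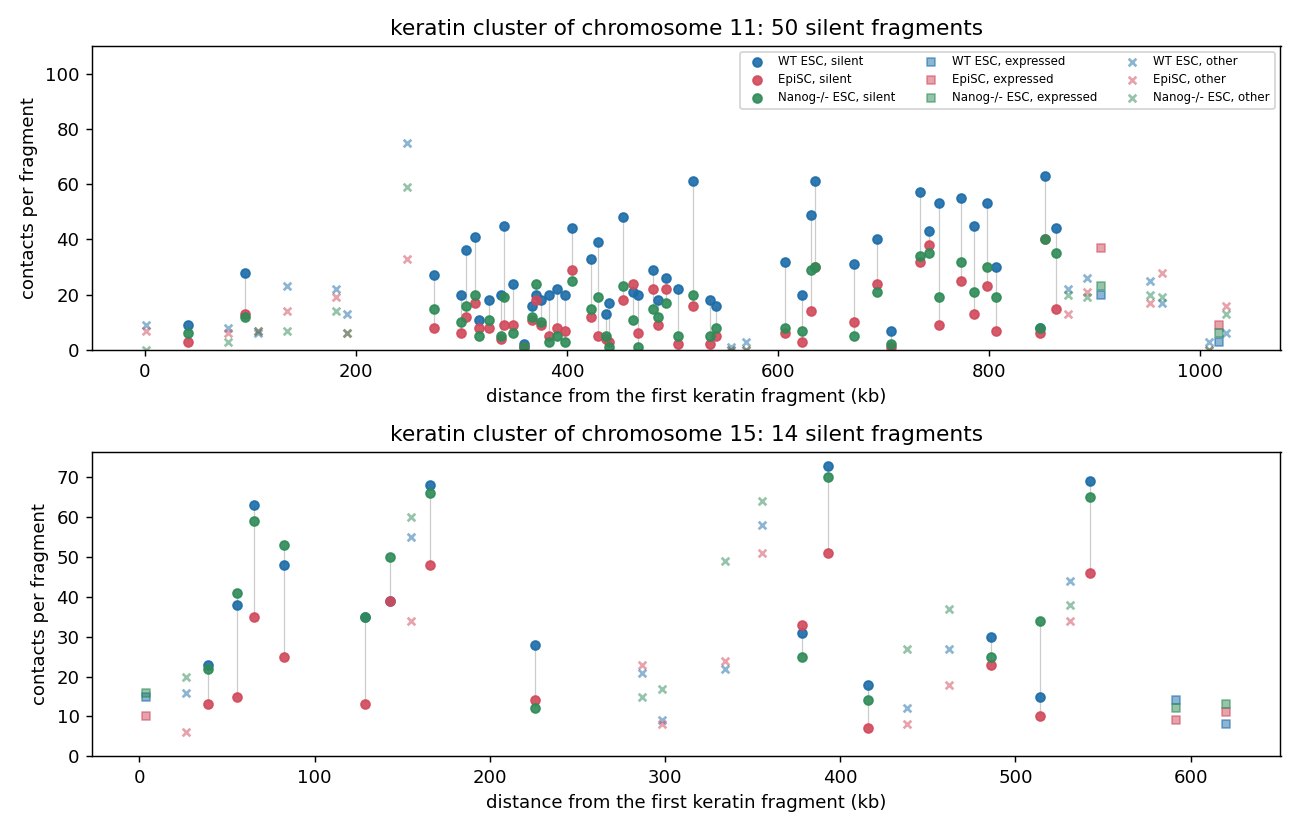
Contacts per fragment (vertical axis) along the keratin clusters of chromosomes 11 (top) and 15 (bottom), by distance from the first keratin fragment (kb, horizontal axis), in WT ESCs (blue), EpiSCs (red), and *Nanog*-/- ESCs (green), with circles for silent, squares for expressed, and crosses for other fragments. On chromosome 11, 49 of the 50 silent fragments have fewer contacts in EpiSCs than in WT ESCs, beside 1082 of all 1810 silent fragments. On chromosome 15 the *Nanog*-/- median (38) lies next to the WT ESC median (36.5).

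A fragment was counted as differing between 2 lists when the numbers differed by at least 5 contacts and by at least 2-fold after 1 was added to each. In EpiSCs 243 silent fragments (13.4%) had fewer contacts than in WT ESCs, where 9.81% of all baited fragments did, and 49 (2.71%) had more, where 4.65% of all did. In *Nanog*-/- ESCs 227 (12.5%) had fewer, where 9.33% of all did, and 13 (0.718%) had more, where 1.39% of all did. The chromosome 11 keratin cluster held 35 of the 243 and 26 of the 227. Outside both clusters 11.7% (10.3 to 13.3) of 1746 silent fragments had fewer in EpiSCs and 11.5% (10.0 to 13.0) had fewer in *Nanog*-/- ESCs. With lists of equal size, 8.95% of silent fragments had fewer and 3.98% more contacts in EpiSCs, beside 6.32% and 5.55% of all fragments, and 4.86% had fewer and 2.49% more in *Nanog*-/- ESCs, beside 3.8% and 3.62%. The excess of fewer over more contacts in *Nanog*-/- ESCs, 227 against 13 as deposited, was thus 88 against 45 in lists of equal size.

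The largest deficits in EpiSCs were all on chromosome 11, in the keratin cluster. *Gm14188* had 61 contacts in WT ESCs, 16 in EpiSCs, and 20 in the *Nanog*-/- ESCs, and *Krtap17-1*, a hair keratin-associated protein gene, had 53, 9, and 19. *Krtap1-4* had 45, 9, and 19, *Krtap9-1* had 49, 14, and 29, and *Gm14189* had 39, 5, and 19. These 5 were chosen for high WT ESC and low EpiSC numbers, so that order was fixed by the choice. Their *Nanog*-/- numbers lay between the WT ESC and EpiSC numbers. *Gm14188* and *Krtap17-1* also led the deficits in the *Nanog*-/- ESCs, followed by *Gm11567* with 61, 30, and 30. The other 2 were outside the keratins: *Zdhhc11*, of a palmitoyltransferase family, on chromosome 13 had 43, 26, and 15, and *Gm8439* on chromosome 4 had 42, 32, and 14.

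The largest surpluses in EpiSCs came from separate regions. *Capn8*, a calpain protease of the stomach, had 26 contacts in WT ESCs, 62 in EpiSCs, and 24 in the *Nanog*-/- ESCs, and 59 of the 62 partners were not baited. *1700042G07Rik* had 34, 50, and 29, *1110006G14Rik* had 6, 21, and 3, *Ccdc81* had 19, 33, and 4, and *Prr9*, a gene beside the cornified envelope genes, had 10, 23, and 2. In *Nanog*-/- ESCs the largest surpluses included 2 nearby gastric mucin genes of chromosome 7, *Muc5ac* with 12, 16, and 33 contacts and *Muc6* with 14, 4, and 24. *Krt4*, a keratin of mucosal epithelia, had 15, 10, and 34, *Krt82*, a hair keratin, had 39, 39, and 50, and *5031434C07Rik* had 1, 3, and 11. These fragments were named for their differences, so the size of the differences is a description of the extremes.

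The fragment pairs themselves were mostly found in a single list. Of 19009 pairs with a silent promoter in any list, 14.1% (13.6 to 14.6) were in all 3, beside 15.0% (14.8 to 15.3) of pairs with an expressed promoter. Pairs found only in WT ESCs made up 29.5%, those only in EpiSCs 18.9%, and those only in the *Nanog*-/- ESCs 14.9%, where pairs with an expressed promoter had 23.6%, 23.8%, and 15.0%. Silent to silent pairs were in all 3 lists in 19.0% (17.0 to 21.2) of 1330, silent to expressed pairs in 18.3% (16.5 to 20.3) of 1652, and silent pairs with a fragment that was not baited in 12.0% (11.4 to 12.5) of 13492. Only 7.74% (6.43 to 9.31) of silent to silent pairs were found in EpiSCs alone. Of the WT ESC pairs of silent promoters, 36.3% were also in EpiSCs and 39.2% in *Nanog*-/- ESCs. Over all WT ESC pairs these shares were close, 39.6% and 41.8%.

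**Figure D5:**
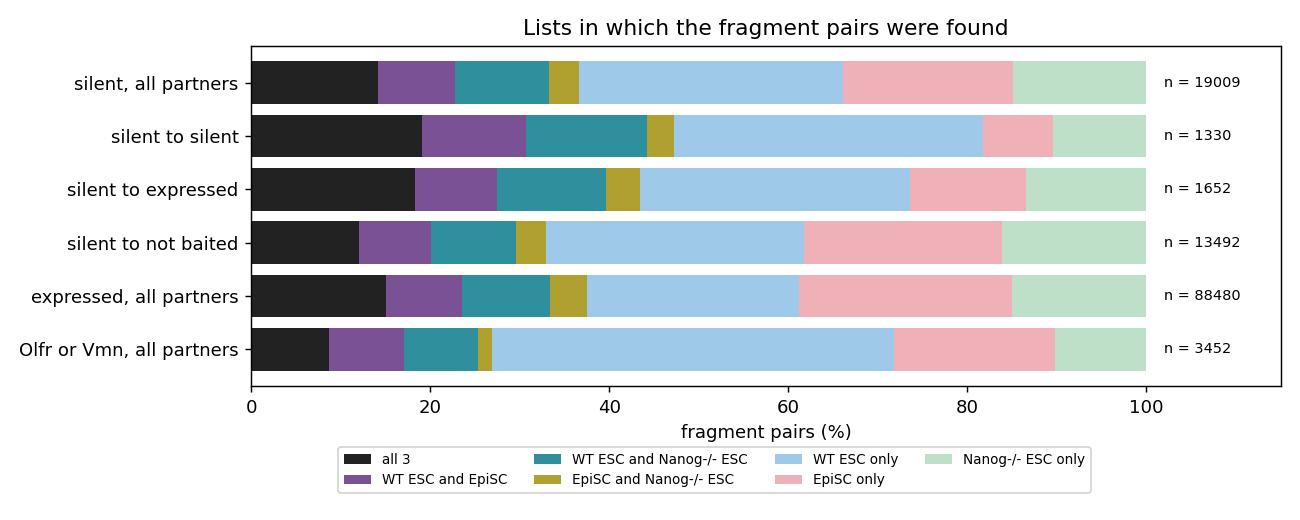
Fragment pairs (%, horizontal axis) by the lists in which they were found (colors), for 6 kinds of pair (vertical axis), with the number of pairs at the right. Silent to silent pairs were in all 3 lists in 19.0%, and pairs with an *Olfr* or *Vmn* promoter in 8.72%.

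Silent to silent pairs over 800 kb were rare, 8 in WT ESCs, 5 in EpiSCs, and 3 in the *Nanog*-/- ESCs, or 13 different pairs. The highest score joined *Gm11062* (chr1:173277712-173278546) and *1810030J14Rik* (chr1:174329641-174330579), 1052 kb apart, with scores of 66.61 in WT ESCs, 81.46 in EpiSCs, and 96.37 in the *Nanog*-/- ESCs from 31, 30, and 33 reads. This was the only listed pair among the 10 highest that appeared in all 3 lists. *Fcer1a*, the IgE receptor alpha chain gene, was paired with *1810030J14Rik* as well, 1106 kb away, in WT ESCs only, with 7 reads. *Gm16496* and *4930571K23Rik*, 1024 kb apart, had 8 reads in WT ESCs and 5 in the *Nanog*-/- ESCs. *Rasgrf1*, a Ras exchange factor gene, and *Zic4*, a zinc finger factor of the developing brain, were paired over 1449 kb in WT ESCs only, with a score of 15.22 from 8 reads. The other 6 of the 10 were each in 1 list, with 3 to 9 reads. At shorter range, *Pax2* and *Tlx1*, developmental factors 394 kb apart on chromosome 19, were paired in all 3 lists, with scores of 28.97, 11.73, and 30.97. *Prss34* and *Prss29*, serine protease genes 17.8 kb apart, were paired with scores of 30.35, 27.62, and 55.85. The last 2 pairs were named after their values were seen.

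No silent to silent pair joined different chromosomes, although 110 pairs of a silent promoter with another kind of fragment did. Pairs between chromosomes made up 0.730%, 0.571%, and 0.527% of silent pairs in WT ESCs, EpiSCs, and *Nanog*-/- ESCs. Over all pairs the shares were close, 0.782%, 0.444%, and 0.462%. How many of the 110 had a baited partner was not counted, so the lack of silent to silent pairs is only a description. The highest-scoring expressed partners included 2 such pairs. *Fam47e* on chromosome 5 was paired with *Rogdi* on chromosome 16 with scores of 119.3, 86.31, and 82.03, and *Dppa1* on chromosome 11 with *Mad2l1*, a spindle checkpoint gene on chromosome 6, with scores of 52.78, 100.9, and 46.52. *Rogdi* RNA stood at 39.63, 43.99, and 35.24 RPKM, and *Mad2l1* RNA at 132.1, 163.5, and 116.6 RPKM. Within a chromosome, *Il5*, a cytokine gene, was paired with *Rad50*, a DNA repair gene 10.9 kb away, with scores of 33.96, 37.52, and 53.57, and *Fabp12* with *Fabp5*, another fatty acid binding protein gene 289 kb away, with scores of 27.85, 42.27, and 21.54. *Gm17299* was paired with *Lpin3*, a phosphatidate phosphatase gene 159 kb away, with scores of 31.36, 45.25, and 21.88. The pairs between chromosomes had few reads, 18, 13, and 12 for *Fam47e* and 9, 16, and 8 for *Dppa1*. Reads within a chromosome were 117, 74, and 58 for *Il5*, 38, 41, and 20 for *Fabp12*, and 39, 44, and 19 for *Gm17299*. The order of the scores was thus not the order of the reads. Each of these 5 pairs was in all 3 lists, while the silent partner stayed under 0.1 RPKM by the rule.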

How the data were processed

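PCHi-C lists and the RNA-seq table of WT ESCs, EpiSCs, and *Nanog*-/- ESCs were used, and the ChIP-seq samples were not analysed here. Per the study's methods, the authors mapped and filtered PCHi-C reads with HiCUP, called interactions between HindIII fragments with CHiCAGO, and combined 2 biological replicates per cell type. The submitters' processing notes name Bowtie 1.1.0, Trim Galore, TopHat, DESeq2, and GRCm38. The authors deposited, for each interaction, the count of read pairs and the CHiCAGO score, both after combining. They deposited RPKM values as the median of each RNA-seq group, and the column headed BT12, a name the labels do not explain, was taken as the *Nanog*-/- group. The table's fold change and p-value columns, the authors' own comparisons, were not used. Replicate assignment of the lanes and library depth are not given in the sources used here, so the precision of the lists is unknown beyond counting error.

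The lists held 107816, 92962, and 82228 entries, and pairs entered from either end were merged, keeping the highest reads and score. Ends of the fragments were checked against GRCm38, and all 192112 fell on HindIII sites. Distance is between fragment midpoints. Pairs with silent members held 238124, 150267, and 150380 reads. Contact numbers, distances, partners, and list overlap were described without tests. Alternatives were a score of at least 7, at least 5 reads, limits of 0.05 and 0.2 RPKM, complete gene matches, lists cut to the 74931 highest scores, and 2 sets of members left out, both chosen after seeing the data. Named genes were the 10 with most contacts, the 5 largest differences per direction and comparison, the 10 highest-scoring silent pairs over 800 kb or between chromosomes, 5 expressed partners, and those next to the RPKM limit, unless stated otherwise. The members and gene lists were chosen with earlier results of these data known. The scripts were tested on simulated data. Python 3.11.15, pandas 2.3.3, NumPy 2.4.6, SciPy 1.17.1, statsmodels 0.14.6, and Matplotlib 3.10.9 were used.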

Additional observations from a re-analysis of the deposited data

How the results depend on the processing

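The excess of silent partners of silent over expressed promoters kept its sign in each list under every alternative. The order of silent and expressed pairs at 250 to 500 kb in EpiSCs turned around without the keratin clusters. Without them the silent median distance was also slightly lower in WT ESCs than in EpiSCs, 166.9 against 167.5 kb, with overlapping intervals. Both stayed above the 121 and 123 kb of expressed promoters. The direction of the chromosome 15 keratins in *Nanog*-/- ESCs turned around with lists of equal size. With a score of at least 7, median contacts were 1, 1, and 0.5 in WT ESCs, EpiSCs, and *Nanog*-/- ESCs, shares without contact 36.1%, 47.2%, and 50.0%, median distances 171 kb in WT ESCs and 85.1 kb in *Nanog*-/- ESCs, silent partners 11.1% and 8.66% in these 2 lists, the excess of silent partners over expressed promoters 14.4 points in EpiSCs, pairs in all 3 lists 12.6%, and fragments with more and fewer contacts 28 and 112 in EpiSCs and 22 and 98 in *Nanog*-/- ESCs.

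With at least 5 reads, shares without contact were 10.9% in WT ESCs and 22.0% in EpiSCs, median distances 174.6, 166.5, and 95.6 kb, shares over 800 kb 1.41%, 1.94%, and 0.421%, and silent partners 5.88% in EpiSCs. With a limit of 0.05 RPKM, median distances were 184.2, 177.1, and 108.5 kb, the excess of silent partners was 20.9 points in WT ESCs, and 7 fragments had more contacts in *Nanog*-/- ESCs. With 0.2 RPKM these excesses were 16.1, 13.8, and 13.3 points, and 26 fragments had more contacts in *Nanog*-/- ESCs.

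Lists of equal size gave a WT ESC median of 2 contacts, shares without contact of 17.3% in WT ESCs and 23.6% in EpiSCs, silent partners of 9.69% in WT ESCs, and 45 fragments with more and 88 with fewer contacts in *Nanog*-/- ESCs. Without the keratin clusters, median distances were 166.9, 167.5, and 91.2 kb, silent partners 5.06%, 3.70%, and 4.28%, and the excess of silent partners 8.87, 7.94, and 7.85 points. Requiring complete gene matches left the same 1810 members, so its values could not differ. Under the other alternatives 116 of 165 values stayed within their intervals, or within 1.5 times for counts, including all 24 without the fragments that hold another gene's start. The lists do not give the values of single replicates, so none could be left out. No paired analysis was possible because the result comes from no test.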
